A study of Mus musculus with 10 samples.

Results

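Binding of the glucocorticoid receptor (GR) was compared between skeletal muscle of fed mice and of mice starved for 24 h, through the lists of GR peaks that were called in each condition by chromatin immunoprecipitation sequencing (ChIP-seq). The comparison used the samples labelled GR fed and GR 24h starved, 2 of the 10 samples of the series, and every peak of their lists, 14108 in fed and 37783 in starved muscle of 365066 in the 8 deposited lists. The labels give C57BL/6J mice of 10 weeks for both samples, an age that differs from the one in the study's own text, and no genetic alteration is named for these mice. The series also holds libraries for lysine-specific demethylase 1 (LSD1), which takes methyl groups off histone H3, and for the mono- and dimethylated forms of histone H3 lysine 9 (H3K9me1 and H3K9me2), with input chromatin as control, 1 library of each kind per condition. Muscle nuclei were used whole, so nuclei of all cell types of the muscle are mixed, and the number of mice per library is not stated in the labels. With 1 library per condition, the spread between replicates is not known for any difference below, and conditions could not be tested against each other. The extraction notes in the labels list both GR libraries under the same code, whose meaning is not stated. Read numbers were not analysed here, so their depth is unknown.

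GR is a nuclear receptor that resides in the cytoplasm until a glucocorticoid binds it, and then binds DNA at the glucocorticoid response element (GRE), an imperfect palindrome of hexamers separated by a short spacer, or through other DNA-bound factors. Fasting raises glucocorticoid output from the adrenal gland. In skeletal muscle, GR is known to activate genes that break down protein and restrain its synthesis, such as those of the ubiquitin ligases MuRF1 (Trim63) and atrogin-1 (Fbxo32) and of the mTOR inhibitor REDD1 (Ddit4).

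Each fed peak was called kept where at least 1 bp was overlapped by a starved peak and lost otherwise, and each starved peak was called kept or gained in the same way. Peaks were given to genes by the nearest transcription start site (TSS), and distances are given from that site, negative upstream. Strength is the fold enrichment over input, the value that the authors' peak caller gave to each peak. A gene was kept with peaks in both lists, lost with fed peaks only and gained with starved peaks only, out of 26180 annotated genes. Because the starved list was the longer one, each count was repeated with the starved list cut to its 14108 peaks of highest fold enrichment, a cut at a fold of 2.79 (matched list sizes). The tissue was checked by the genes that peaks were assigned to. Of 14 marker genes of myofibres, 12 had a fed peak and 13 a starved peak, against 1 and 4 of 10 markers of macrophages and leukocytes, 3 and 9 of 10 of endothelium and 2 and 8 of 10 of fibro-adipogenic progenitors. With matched sizes the starved numbers were 12, 3, 3 and 4. The other lists of 10 markers had fed and starved peaks at 5 and 8 genes for satellite cells, 4 and 6 for Schwann cells and nerve, 2 and 4 for smooth muscle and pericytes, and 1 and 3 for adipocytes. Over all annotated genes, 29.1% had a fed peak and 54.8% a starved peak, or 29.2% with matched sizes. Markers of satellite cells (50%), of Schwann cells and nerve (40%) and, narrowly, of endothelium (30%) also exceeded the fed share, so myofibres were not the only type above it. Markers of endothelium (90%), satellite cells and fibro-adipogenic progenitors (80% each) and Schwann cells and nerve (60%) exceeded the starved share. With matched sizes every marker list except that of adipocytes (20%) was above the share of all genes, so the starved list separated myofibres less clearly. The part of these cell types in the differences between the lists was not tested.

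The sites below carry a GRE-like sequence, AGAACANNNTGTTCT with at most 1 mismatch among its 12 fixed bases, which is its own reverse complement. They are printed from GRCm38, plus strand, 5′ to 3′, with the hexamers in capitals and 10 bases on each side. The first set shows sites that stayed under a GR peak in starved muscle. It comprises the site in the kept peak of highest fed fold, near 4933431G14Rik, at chr6:72162273-72162307 (fold of the peak 17.99 in fed and 14.1 in starved muscle, 0 mismatches), and sites of 5 genes known to respond to glucocorticoids in muscle, Per1 at chr11:69097066-69097100, Ddit4 at chr10:59974263-59974297, Pik3r1 at chr13:101812132-101812166, Fbxo31 at chr8:121563178-121563212 and Trim63 at chr4:134314901-134314935.
4933431G14Rik, kept: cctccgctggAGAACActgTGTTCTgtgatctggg
Per1, kept: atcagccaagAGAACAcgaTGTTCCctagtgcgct
Ddit4, kept: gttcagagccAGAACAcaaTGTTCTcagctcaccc
Pik3r1, kept: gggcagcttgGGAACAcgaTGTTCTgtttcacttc
Fbxo31, kept: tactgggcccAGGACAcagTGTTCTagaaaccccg
Trim63, kept: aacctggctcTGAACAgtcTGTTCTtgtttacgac

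The second set shows such sites in peaks of high fold that were lost or gained. The lost sites lie in introns nearest to Homer2 at chr7:81685594-81685628 (fed fold 6.55), Pnpla8 at chr12:44270342-44270376 (6.07) and Nt5c2 at chr19:46909083-46909117 (5.64). The gained sites lie near Mir1a-1 at chr2:180387504-180387538 (starved fold 5.07), Ddias at chr7:92818138-92818172 (4.35) and Mir365-2 at chr11:79742198-79742232 (4.18). Mir1a-1 encodes a muscle microRNA.
Homer2, lost: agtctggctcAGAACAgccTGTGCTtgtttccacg
Pnpla8, lost: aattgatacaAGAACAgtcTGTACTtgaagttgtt
Nt5c2, lost: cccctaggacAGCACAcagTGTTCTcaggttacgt
Mir1a-1, gained: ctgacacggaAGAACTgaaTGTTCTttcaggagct
Ddias, gained: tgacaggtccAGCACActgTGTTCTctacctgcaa
Mir365-2, gained: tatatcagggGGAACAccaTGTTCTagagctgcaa

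Most peaks carried no such sequence with at most 1 mismatch, including the strongest lost and gained ones. Less perfect matches were not searched and may be present. Whole peaks of 3 kinds are shown for comparison, from the plus strand of GRCm38: the kept peak with the lowest ratio of starved to fed fold among pairs that reach a fold of 5, in an intron nearest to Nnt (chr13:119339843-119340127, 15.8 in fed and 4.24 in starved muscle), the lost peak nearest to Gm16555 (chr17:49734232-49734458, 8.53) and the gained peak nearest to 1700104L18Rik (chr12:54243265-54243525, 7.06). Capitals mark an E-box, CAGCTG, the only one of the motifs listed further below that any of these peaks held.
Nnt, kept: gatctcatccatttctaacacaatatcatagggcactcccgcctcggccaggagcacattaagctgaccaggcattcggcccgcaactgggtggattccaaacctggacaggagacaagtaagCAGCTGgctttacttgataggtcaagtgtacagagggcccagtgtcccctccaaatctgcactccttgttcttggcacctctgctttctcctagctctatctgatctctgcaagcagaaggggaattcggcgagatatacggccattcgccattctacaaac
Gm16555, lost: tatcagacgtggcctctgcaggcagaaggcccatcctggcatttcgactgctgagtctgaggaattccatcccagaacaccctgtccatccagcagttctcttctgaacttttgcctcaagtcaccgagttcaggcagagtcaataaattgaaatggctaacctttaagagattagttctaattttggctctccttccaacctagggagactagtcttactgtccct
1700104L18Rik, gained: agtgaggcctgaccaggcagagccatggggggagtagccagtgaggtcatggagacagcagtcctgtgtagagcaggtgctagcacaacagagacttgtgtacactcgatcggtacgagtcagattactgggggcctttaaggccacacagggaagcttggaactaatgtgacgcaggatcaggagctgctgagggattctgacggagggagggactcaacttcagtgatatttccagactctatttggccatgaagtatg

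The strongest fed sites were also occupied in starved muscle. All of the 100 fed peaks of highest fold overlapped a starved peak, a share whose exact 95% binomial interval starts at 96.4%, as did 94.7% of the top 1000 and 80.7% of the top 4000. The interval, here and below, covers counting error only. In the other direction, all of the 100 starved peaks of highest fold overlapped a fed peak, as did 95.4% of the top 1000. The order of the peaks was less alike than their presence. Only 50 of the top 100 fed peaks were among the top 100 starved peaks, and 56.1% (95% interval 53.0 to 59.2) of the top 1000 fed peaks were among the top 1000 starved ones. These top 1000 peaks lay nearest to 852 genes in fed and 810 in starved muscle, of which 511 were shared.

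**Figure D1:**
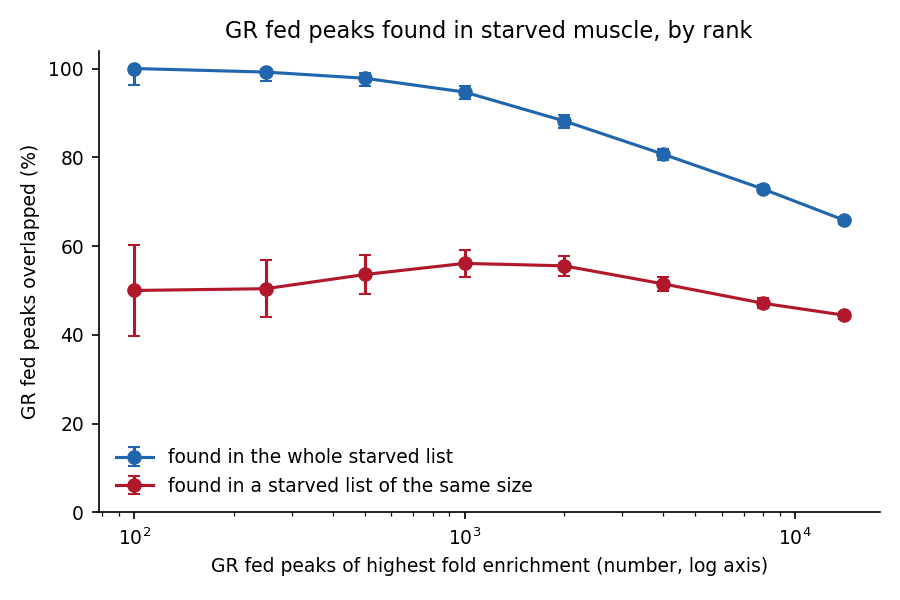
Share of GR fed peaks (y axis, percent) that overlapped a GR starved peak, for the fed peaks of highest fold enrichment (x axis, number of peaks, log axis), in the whole starved list (blue) or in a starved list of the same size (red); bars are exact 95% binomial intervals. The share in the whole list runs from 100% to 65.8%, and that in a list of equal size stays between 44.4% and 56.1%.

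The share of fed peaks kept increased with their fold, from 54.9% (95% interval 53.2 to 56.5) at a fold of 2.5 to 3 through 63.9% at 3 to 4 and 74.8% at 4 to 5 to 97.2% at 7 to 10. Lost peaks were nevertheless present at high fold: 132 had a fold of at least 5, against 1440 kept ones. Gained peaks were weak. Their median fold was 2.66, against 2.99 in starved peaks that were kept, and only 24 of 28533 (0.0841%) had a fold of at least 5. A q-value over 0.01 was found in 77.1% of them, against 29.1% of starved peaks that were kept. In the fed library the shares were 22.4% of kept and 43.3% of lost peaks. With matched list sizes, 6268 fed peaks (44.4%, 95% interval 43.6 to 45.3) were kept, and 7903 of the 14108 starved peaks (56.0%, 55.2 to 56.8) had no fed partner. The median length was 312 bp in kept and 220 bp in lost fed peaks and 287 bp in gained peaks, and shorter peaks have less chance of an overlap. Of lost peaks, 15.2% had a starved peak within 1 kb and 53.1% within 10 kb.

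At the level of genes, 6769 genes were kept (25.9% of all annotated genes), 840 were lost (3.21%) and 7567 were gained (28.9%). With matched list sizes, 4921 genes were kept (18.8%), 2688 were lost (10.3%) and 2729 were gained (10.4%). The near equality of the last 2 numbers follows from the equal list sizes. Of the genes with a fed peak, 89% were kept, or 64.7% with matched sizes, and the gene lists below are read against these shares. In all, 7609 genes (29.1%) had a fed peak and 14336 (54.8%) a starved peak, or 7650 (29.2%) with the matched starved list. Kept genes accounted for most of the new peaks: 15707 of the gained peaks (55.0%) lay nearest to a gene that already had a fed peak, and 5256 kept genes (77.6%) had at least 1 gained peak. The median number of peaks in kept genes was 1 in fed and 3 in starved muscle. A gene that was kept was not always bound at the same place, as 1267 kept genes had no pair of overlapping peaks.

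Genes with several fed peaks were kept almost without exception. Of genes with 1 fed peak 83.9% were kept, or 51.5% with matched sizes, against 99.5% and 93.2% of genes with 3 to 4 fed peaks. All of the 423 genes with 5 to 9 fed peaks were kept in the deposited lists, and 51 of the 52 genes with 10 or more. The exception was Mir101c, with 17 fed peaks and no starved peak. These had folds of at most 1.25 and lay in a window of chromosome 9 in which the fed list held 17 peaks and the starved list 2. Lost genes mostly had a single peak (767 of 840, 91.3%), with a median highest fold of 3.06. Gained genes mostly had 1 weak peak as well (4706 of 7567, 62.2%), with a median highest fold of 2.71, and only 6 of them had a peak with a fold of at least 5. Among lost genes 22 did.

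**Figure D2:**
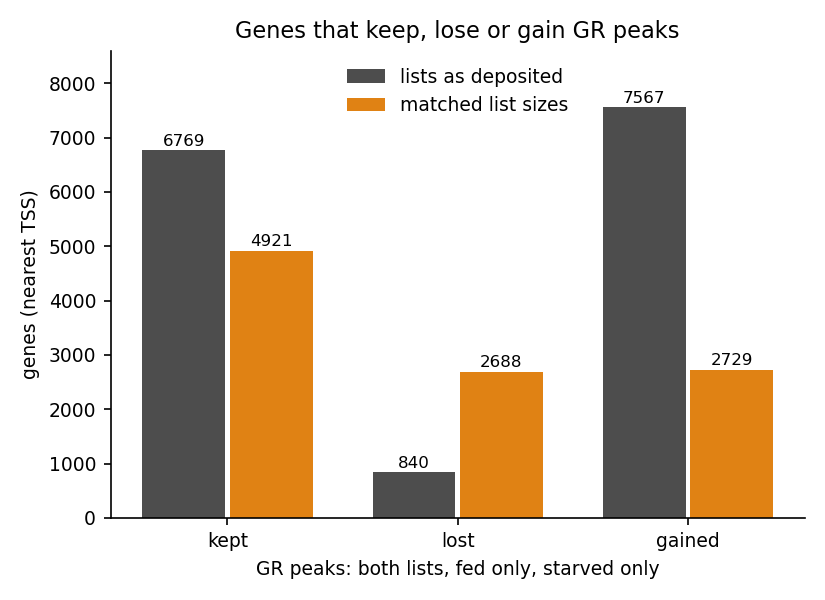
Number of genes (y axis) that kept, lost or gained GR peaks in starved muscle (x axis), with the lists as deposited (dark) and with matched list sizes (orange). Gained genes outnumber lost genes 7567 to 840 as deposited, and 2729 and 2688 genes are gained and lost at matched sizes.

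Genes already known to respond to glucocorticoids were kept. Of a list of 33 classic GR targets, 29 had peaks in both conditions, also with matched list sizes, none was lost or gained, and 4 had no peak in either list (Tat, Pck1, Anxa1 and Rasd1). For comparison, 29.1% of all genes had a fed peak. Most of the classic targets with a peak had several, 152 fed peaks in all, of which a few were strong. Genes with that many peaks were mostly kept in general. At matched sizes 93.2% of all genes with 3 to 4 fed peaks and 98.1% of those with 5 to 9 were kept. Tsc22d3, which encodes the anti-inflammatory protein GILZ, had 11 fed and 9 starved peaks, with a highest fold of 11.9 and 10.8. Klf9, a Krüppel-like transcription factor, had 6 and 14 peaks (8 with matched sizes) with highest folds of 10.8 and 8.62, and Klf15, a regulator of amino acid breakdown, had 7 and 10 (5) with 9.62 and 7.63. Zbtb16, a zinc-finger transcription factor, had 26 and 32 peaks, or 26 and 18 with matched sizes, and its highest fold was 16.6 (fed) and 9.30 (starved). Zfp36, which encodes an mRNA-destabilising protein, had 3 peaks in each list, with highest folds of 15.4 and 11.7.

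Fkbp5, a co-chaperone that lowers the affinity of GR for its ligand, had 4 fed and 6 starved peaks (3 with matched sizes). The intronic peaks at 57.4 kb (fold 5.49 in fed and 4.01 in starved muscle) and 47.8 kb (3.97 and 2.84) were kept, the fed peaks at 59.0 and 39.4 kb (2.95 and 2.93) were lost, and 4 starved peaks with folds of 2.34 to 3.07 were gained. At Per1, a component of the circadian clock, the peak at -2.10 kb over the GRE-like site printed above had folds of 10.4 (fed) and 7.94 (starved). The peak across its promoter had a fold of 8.40 and 4.58, and the upstream peak at -3.88 kb a fold of 2.98 and 4.45. Thus at 1 gene the fold was lower in starved muscle for 2 peaks and higher for the third.

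In a list of 21 genes of ubiquitin ligases linked to atrophy and of ubiquitin, 19 were kept, Mdm2 was gained with 1 peak (fold 2.79) and none was lost. With matched sizes 15 were kept, 4 lost and 1 gained, so that 16 had a starved peak against 19 with a fed one. Among all genes with a fed peak 89% were kept, or 64.7% with matched sizes. Gained were 28.9% of all genes, or 10.4% with matched sizes. Trim63, the ubiquitin ligase of sarcomeric proteins, had 5 fed peaks, all kept, and 11 starved peaks (7 with matched sizes). Upstream of its TSS every fed peak had a higher fold in starved muscle: 3.27 and 7.44 at -7.56 kb, 5.99 and 11.04 at -4.76 kb, 3.65 and 5.32 at -3.37 kb, and 6.40 and 8.70 at the promoter, over the GRE-like site printed above. The peak within the gene, at 4.73 kb, had a lower fold in starved muscle, 3.87 and 2.99. In the list ranked by fold, the peak at -4.76 kb was at rank 857 in fed and 23 in starved muscle. The 6 gained peaks of Trim63 had folds of 2.58 to 3.19.

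Fbxo32 showed the other pattern, many weak gained peaks. It had 4 fed and 19 starved peaks (9 with matched sizes). Its promoter peak had a fold of 4.30 in fed and 5.02 in starved muscle, and 16 starved peaks, most of them within introns, had no fed partner and folds of 2.32 to 3.44. Fbxo31, another F-box protein, had 7 and 6 peaks, and its strongest, in an intron at 15.6 kb over the site printed above, had the same fold to 3 digits in both conditions, 11.7. Proteasome subunits were covered at lower fold. Of 42 subunit genes, 17 had a fed peak and 31 a starved peak, 15 were kept, 2 lost (Psma3, fold 5.41, and Psmd9, fold 2.82) and 16 gained. Over all genes 29.1% had a fed peak, 54.8% a starved peak, 25.9% were kept and 28.9% gained. With matched sizes 14 had a starved peak and 9 were kept, 8 lost and 5 gained, so the excess of gained over lost genes was not seen at matched sizes. The strongest gained subunit gene, Psmd14, had a highest fold of 3.11.

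**Figure D3:**
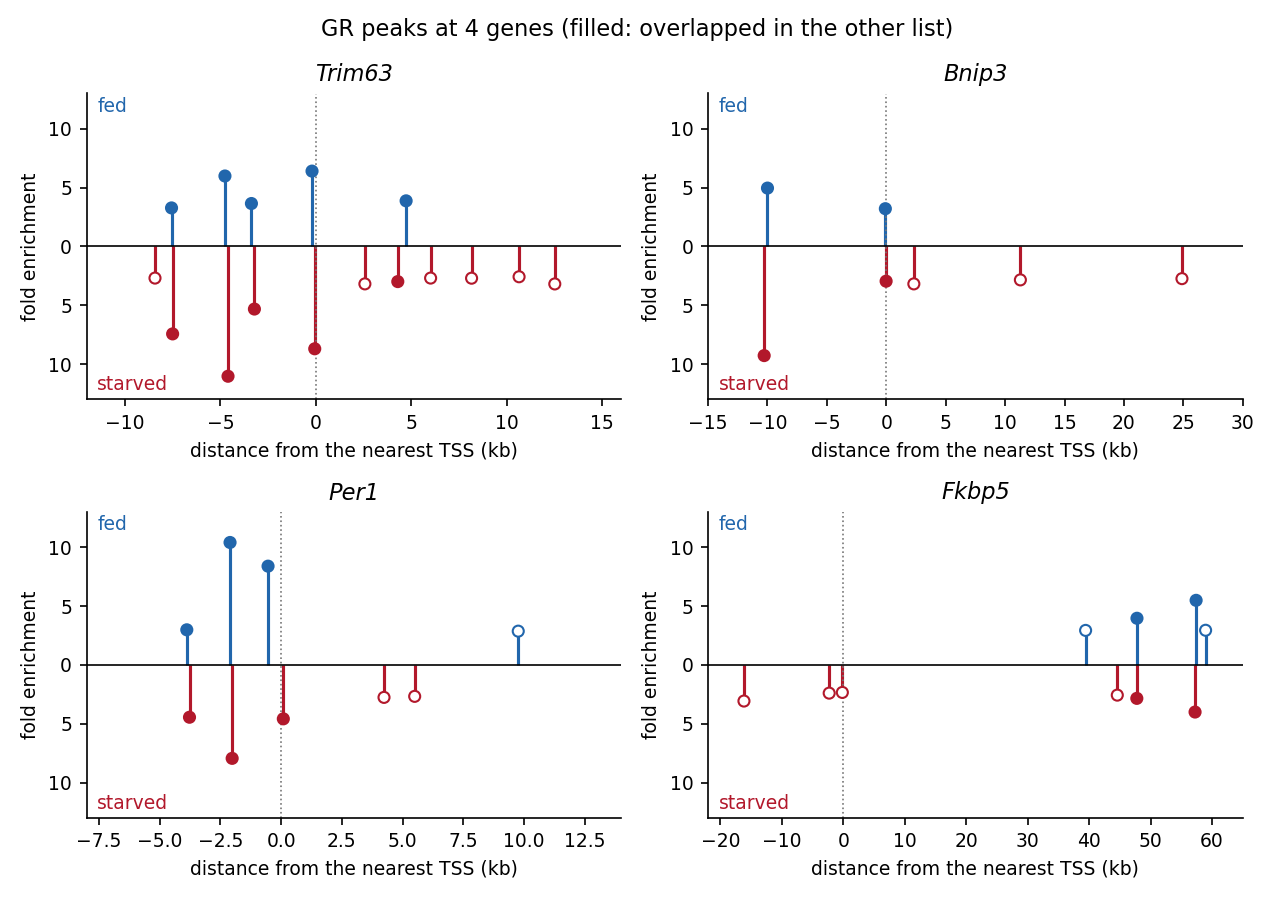
GR peaks nearest to Trim63, Bnip3, Per1 and Fkbp5 by the distance of the peak midpoint from the nearest TSS (x axis, kb, dotted line at 0) and fold enrichment over input (y axis, linear), fed upwards in blue and starved downwards in red. Filled points overlap a peak of the other list and open points do not. The upstream peaks of Trim63 and the upstream peak of Bnip3 are taller in starved muscle, whereas the strong peaks of Per1 and Fkbp5 are taller in fed muscle.

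Of 39 autophagy genes, 23 were kept, 11 gained and 1 lost, or 19, 7 and 5 with matched sizes. Thus 23 of the 24 genes with a fed peak were kept, against 89% of all such genes, and 19 at matched sizes, against 64.7%. Gained were 28.9% of all genes, or 10.4% at matched sizes. Bnip3, a receptor for mitophagy, had 2 fed peaks, both kept. The upstream peak, whose starved midpoint lay at -10.3 kb, had a fold of 4.96 in fed and 9.28 in starved muscle, whereas that at its promoter had 3.21 and 2.95. Map1lc3a, which encodes an LC3 protein of the autophagosome, had 3 fed and 7 starved peaks (5 with matched sizes) with highest folds of 11.4 and 11.9. Tfeb, a transcription factor for lysosomal genes, had 8 and 11 (7 with matched sizes), with 8.73 and 8.80. Among the gained genes were Gabarapl2 (3 starved peaks, highest fold 3.39) and Trp53inp1 (2 peaks, 3.12). Gabarapl1 was lost by the gene rule, but its promoter peak (fold 3.51) overlapped a starved peak of fold 4.17 whose midpoint lay nearer to another gene. Ctsl, a lysosomal protease, kept all of its 3 fed peaks, at folds of at most 3.06, and was lost with matched sizes because its 5 starved peaks had folds of at most 2.78.

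The peaks of Atg7, the enzyme that activates ubiquitin-like proteins of autophagy, belonged to a local block. It had 3 fed and 38 starved peaks (18 with matched sizes), the largest rise at matched sizes, and Hrh1, the neighbouring histamine receptor gene, had 0 and 22. Between positions 114460049 and 114643672 of chromosome 6 (GRCm38), 183.6 kb, the fed list held 1 peak and the starved list 55, none of which overlapped a fed peak. Their median fold was 2.70, the highest 4.06, and 81.8% of them lay mostly in soft-masked repeat sequence. The same span held 3 LSD1 peaks in fed and 40 in starved muscle, and 5 and 0 of H3K9me2. The part of repeats in this block was not tested. Without Atg7, the autophagy list held 44 fed and 101 starved peaks, or 50 starved peaks with matched sizes.

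Of 40 genes of insulin and mTOR signalling, 34 had peaks in both conditions, 5 were gained and none was lost. With matched sizes 32 were kept, 2 gained and 2 lost. Over all genes 25.9% were kept, 28.9% gained and 3.21% lost, or 18.8%, 10.4% and 10.3% with matched sizes. Ddit4 kept all 9 fed peaks and had 14 starved peaks (8 with matched sizes). Its strongest fed peak, at -22.8 kb over the perfect GRE-like sequence printed above, had a fold of 8.58 in fed and 6.68 in starved muscle, and its strongest starved peak, at 30.6 kb, 6.90 and 7.96. Pik3r1, the regulatory subunit of phosphatidylinositol 3-kinase, had 9 and 13 peaks (9 with matched sizes). The peak at -43.9 kb over its printed site had folds of 11.3 and 11.7, and that at -227 kb had 12.2 and 7.60. Eif4ebp1, a repressor of translation that mTOR phosphorylates, had 2 fed and 7 starved peaks (4 with matched sizes), and the fold of 1 of its kept peaks was 4.12 in fed and 8.24 in starved muscle. Foxo3 had 5 and 21 peaks (4 with matched sizes), with a highest fold of 10.9 and 8.79, whereas Foxo1 had 2 and 8 (1 with matched sizes), with a highest fold of 2.93 and 2.85. FOXO proteins are transcription factors held in the cytoplasm by insulin signalling.

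The genes of fuel use with a fed peak numbered 25 in the list of fatty acid use and 26 in that of glycolysis, of which 1 each was lost. Of 37 genes of fatty acid use and fuel choice, 24 were kept, 7 gained and 1 lost, and of 31 genes of glycolysis and glycogen 25, 3 and 1. With matched sizes these numbers were 20, 3 and 5 and 21, 1 and 5. Among all genes with a fed peak 89% were kept, or 64.7% with matched sizes. Gained were 28.9% of all genes, or 10.4% with matched sizes. Pdk4, which closes the entry of pyruvate into the mitochondrial cycle, had 4 fed and 8 starved peaks (5 with matched sizes), with a promoter peak of 3.64 in fed and 4.52 in starved muscle and an upstream peak at -13.5 kb of 7.53 and 5.81. Ucp3, a mitochondrial carrier, had 5 and 11 peaks (6 with matched sizes) with highest folds of 11.2 and 9.27. The lost gene of the glycolysis list was Pfkfb1, a regulator of glycolysis (highest fold 4.94). Cpt1b, the muscle form of the carnitine transferase, was gained with 3 peaks, the highest at 3.85. Of 28 genes of amino acid use, 20 were kept and 6 gained, or 18 and 2, with 2 lost, at matched sizes. Glul, glutamine synthetase, had 4 and 5 peaks (3 with matched sizes) with highest folds of 8.49 and 5.43.

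Contractile genes are read here against all genes with a fed peak, of which 89% were kept, or 64.7% at matched sizes. For gained genes the share over all genes was 28.9%, or 10.4% at matched sizes. Of 49 sarcomere genes, 37 had a fed peak and 36 were kept with either list size, 5 were gained and Myh8 was lost, or 2 and 1 at matched sizes. Titin (Ttn) had 8 fed and 17 starved peaks (7 with matched sizes) with highest folds of 8.49 and 5.56. All 34 myogenic transcription factors had a starved peak and 27 a fed peak, and none was lost, whereas with matched sizes 24 were kept, 3 lost and 3 gained. Of 42 genes of calcium handling, 34 had a fed peak, and 34 were kept and 5 gained, or 28 and 3, with 6 lost, at matched sizes. Of 26 genes of the neuromuscular junction, 17 were kept and 5 gained, or 15 and 1, with 2 lost. Mstn, which encodes myostatin, an inhibitor of muscle growth, had 2 peaks in each list, of which the one at -23.9 kb was kept with a fold of 12.97 in fed and 7.90 in starved muscle. Its pathway list held 27 genes, of which 15 were kept and 6 gained, or 13 and 3, with 2 lost, at matched sizes. Among 24 clock genes 21 were kept and 2 gained, and among 28 genes of the KLF, C/EBP and growth arrest families 25 and 1. With matched sizes 19 and 23 were kept, and 2 in each list were lost.

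Lists of housekeeping genes are longer, and over all genes 3.21% were lost and 28.9% gained, or 10.3% and 10.4% at matched sizes. Only genes with a fed peak can be lost, and 89% of all such genes were kept, or 64.7% at matched sizes. Among genes with 1 fed peak the shares kept were 83.9% and 51.5%. Of 85 genes of the respiratory chain and ATP synthase, 40 had a fed and 60 a starved peak, and 33 were kept, 7 lost and 27 gained. With matched sizes 24 had a starved peak, and 18 were kept, 22 lost and 6 gained. Of 82 cytosolic ribosomal protein genes, 27 were kept, 1 lost and 31 gained, or 19, 9 and 14 with matched sizes, and of 77 mitochondrial ones 22, 1 and 26, or 16, 7 and 10. The highest folds in lost respiratory genes were 3.82 (Ndufs3, whose peak overlapped a starved peak assigned to another gene) and 3.63 (Cox6b1, which had no starved partner). Among 34 genes of GR and its coregulators, 22 had a fed peak, and 19 were kept, 8 gained and 3 lost, or 17, 3 and 5 with matched sizes. The 19 kept of 22 genes were near the 89% over all genes with a fed peak. The lost genes were Kdm1a, which encodes LSD1 itself, with 1 fed peak of fold 3.82, Hdac3 with 3.29 and Rcor3 with 2.94. The peak of Hdac3 overlapped a starved peak assigned to another gene, and those of Kdm1a and Rcor3 did not. The gene of GR, Nr3c1, had 6 fed and 14 starved peaks (3 with matched sizes), with highest folds of 7.49 and 6.67. Pax7, a transcription factor of muscle stem cells, had 1 fed and 2 starved peaks that did not overlap, at folds of 2.88 and at most 2.70. As a silent reference, 8 of 1110 olfactory receptor genes had a fed peak and 77 a starved peak, or 16 with the matched starved list. Of 39 Hox genes, a second reference that was not taken as silent, 4 had a fed peak and 16 a starved peak, or 5.

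The genes of each class were also ranked by their highest peak. The first among kept genes were Gm14321 (folds of 16.6 in fed and 19.7 in starved muscle), 4933431G14Rik (17.99 and 14.1) and Armc12 (17.4 and 9.32). Among lost genes, E030003E18Rik had the highest fold, 9.78, but this promoter peak overlapped a starved peak of fold 5.97 assigned to Aldh1a1, the retinaldehyde dehydrogenase gene whose TSS lies beside it. That made Aldh1a1 the gained gene of the third highest fold, although the locus was bound in both conditions. Such a change of the nearest TSS concerned 110 of the 840 lost genes, also Fahd1 (6.09 in fed and 4.18 in starved muscle). Gna14, a G-protein subunit, lost both of its fed peaks (7.19 and 5.33), without a starved partner. Gained without any fed peak were 1700104L18Rik, with 7 peaks of folds up to 7.06, and Scaf8, with 6 peaks up to 6.00. The single peaks of highest fold were nearest to Glb1l2 (9.46) among lost ones and to Sik1 (7.15), a salt-inducible kinase, among gained ones. None of the 5 strongest lost and 5 strongest gained peaks held a GRE-like sequence.

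Between the kept peaks themselves, fold enrichment was mostly lower in starved muscle. Over 9287 pairs, the median log2 ratio of starved to fed fold was -0.19 (interquartile range -0.37 to -0.03), and it was -0.52 over the 1440 pairs with a fed fold of at least 5, a group chosen on the fed value. A fold at least 1.5 times higher in fed muscle was found in 989 pairs (10.6%) and at least 1.5 times higher in starved muscle in 72 pairs (0.775%). Fold depends on the depth of the library and its input, so that a shift common to all pairs cannot be told apart from depth. Across pairs, log2 folds of both conditions correlated with Pearson's r of 0.72 and Spearman's rho of 0.60 (n = 9287 pairs, which share their libraries). The pairs that differed most towards fed muscle lay nearest to Nnt, a mitochondrial transhydrogenase (15.8 and 4.24), Bmp8a, a growth factor (13.2 and 3.81), Ssr3, a part of the translocon (12.04 and 3.63), and Gadd45g, a growth arrest gene (9.43 and 2.85).

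**Figure D4:**
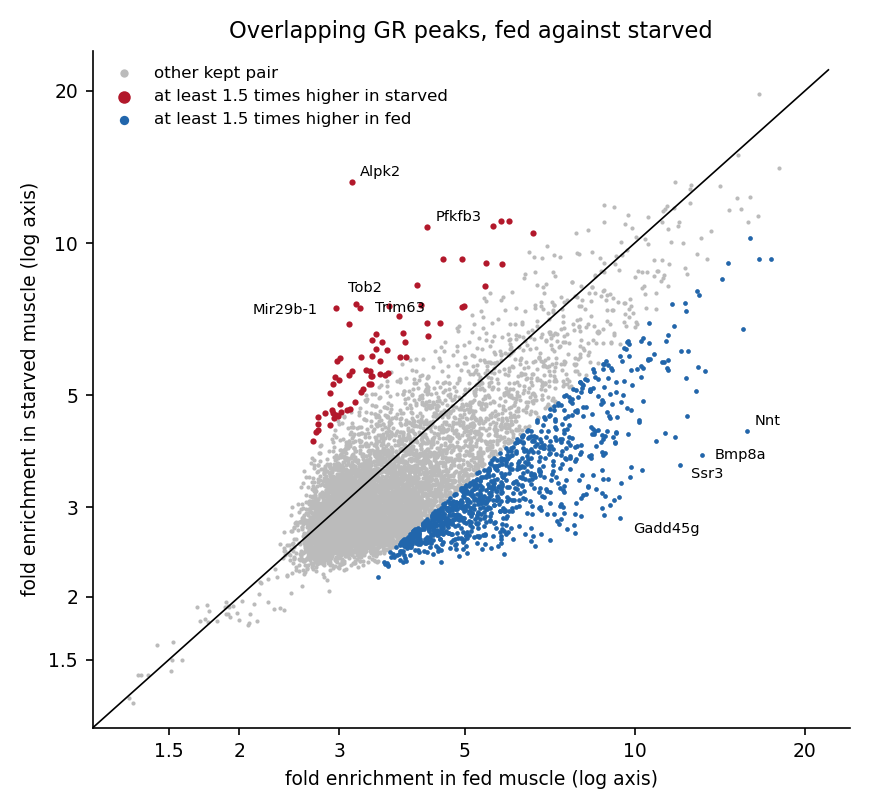
Fold enrichment of GR in fed (x axis, log axis) and starved muscle (y axis, log axis) for the 9279 pairs of overlapping peaks on chromosomes 1 to 19, X and Y, with the line of equal fold. Red points are at least 1.5 times higher in starved and blue points at least 1.5 times higher in fed muscle, and names mark the pairs at the extremes. The blue points outnumber the red ones 989 to 72 over all pairs, and the red ones include Pfkfb3 (4.29 and 10.8) and Trim63 (3.27 and 7.44).

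The 72 pairs that stood higher in starved muscle lay nearest to 64 genes. In 7 genes there were at least 2 of them: Retreg1, a receptor for autophagy of the endoplasmic reticulum (3 of its 6 kept pairs), Trim63 (2 of 5), H6pd, an enzyme that supplies NADPH in the endoplasmic reticulum (2 of 7), Npc1, a lysosomal cholesterol transporter (2 of 2), Pde4b, a phosphodiesterase (2 of 6), Mir29b-1 (2 of 9) and 4933411K16Rik (2 of 2). The largest ratio, 4.17, was at Alpk2, a kinase gene, where folds of 3.16 (fed, rank 8306) and 13.2 (starved, rank 4) were measured. It was followed by Mir29b-1 (2.96 and 7.44), Pfkfb3, a regulator of glycolysis (4.29 and 10.8), Tob2, an antiproliferative protein (3.22 and 7.56), and Trim63. Others were chosen after their values were seen because their roles are well known: Eif4ebp1 (4.12 and 8.24), Bnip3 (4.96 and 9.28), Psap, the precursor of lysosomal saposins (3.84 and 7.18), Txnip, an inhibitor of glucose uptake (3.28 and 5.95), and Mt2, a metallothionein (3.20 and 4.84). Mt2 had 2 fed peaks and 1 starved peak, and its highest fold was lower in starved (4.84) than in fed muscle (6.14).

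By list, 3 of the 54 kept pairs of the atrophy ligases were higher in starved muscle and 5 were higher in fed muscle, against 0.775% and 10.6% of all pairs. The 3 pairs lay at Trim63 and Fbxo31, and the pair of Fbxo31 (2.75 and 4.53) shares its starved peak with a stronger fed peak (6.05). In the autophagy list the numbers were 1 and 3 of 39 pairs, in insulin and mTOR signalling 1 and 7 of 76, in the classic GR targets 1 and 12 of 120, in the sarcomere list 1 and 11 of 90 (the first at Myoz2, a Z-disc protein), and in the myogenic list 2 and 6 of 77 (the first at Myf6 and Tead1). Glycolysis and glycogen had 1 and 11 of 64 pairs, and the neuromuscular list 1 and 6 of 32 (the first at Musk, the muscle receptor kinase). The cytosolic ribosomal list had 0 and 7 of 32, and the amino acid list 0 and 8 of 46. The median log2 ratio lay between -0.08 (autophagy) and -0.27 (sarcomere) in these 10 lists.

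For pairs higher in starved muscle, features that did not enter their choice were compared with the other kept pairs. An LSD1 peak of fed muscle overlapped 20 of the 72 (27.8%, 95% interval 17.9 to 39.6), against 57.2% (54.1 to 60.3) of pairs higher in fed muscle and 60.7% (59.7 to 61.7) of all kept pairs. In promoters lay 5.56% of the 72 and 5.97% of pairs higher in fed muscle, against 27.0% of all. The median fed fold was 3.41 in the 72, 5.54 in pairs higher in fed muscle and 3.41 in all pairs. LSD1 overlap was not compared at like fold and location, so these references are not alike. The AP-1 motif, searched as TGACTCA and its reverse complement TGAGTCA in 300 bp around the starved midpoint, was present in 12 of the 72 (16.7%, 8.92 to 27.3), in 6.31% (4.87 to 8.02) of pairs higher in fed muscle and in 7.55% of all pairs. In sequence of the same length 5 kb away the shares were 3.47%, 5.09% and 5.39%. A FOXO motif, TGTTTAC on either strand, added after the folds had been seen, was present in 6 of the 72 (8.33%, 3.12 to 17.3), in 3.46% and in 4.46%, with 5.56%, 4.68% and 4.04% in the sequence 5 kb away. The GRE-like sequence was present in the same 300 bp in 1 of the 72 (1.39%, 0.0352 to 7.50). Its share was 3.77% (2.67 to 5.16) in pairs higher in fed muscle and 1.37% in all pairs. These counts are small. The interval for FOXO includes the share of all pairs, and that for AP-1 includes the 9.15% of kept fed peaks outside promoters, a closer reference since few of the 72 lie in promoters.

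The share of peaks kept differed by location, and the order depended on list size. In the deposited lists 79.4% of fed peaks in promoters, the span between 1000 bp before and 100 bp after a TSS, were kept, against 61.8% in introns and 61.4% between genes. With matched list sizes the shares were 42.3%, 45% and 45.8%. The median fold of promoter and intronic peaks was 3.05 and 3.42 in fed muscle and 2.72 and 2.71 in starved muscle. At like fold in the deposited lists, promoter peaks were kept more often: 74.4% (95% interval 72.0 to 76.7) against 43.1% (41.1 to 45.2) of other peaks at a fold of 2.5 to 3, and 81.9% against 58.8% at 3 to 4. Of the 3103 genes with a fed promoter peak, 2106 (67.9%) also had a starved promoter peak, which is 39.0% of the 5402 genes with one.

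The order of kept and lost fed peaks in the share with a GRE-like sequence depended on the setting, and in gained peaks the share was near that of the surroundings. They were found in 198 of 9279 kept fed peaks (2.13%, 95% interval 1.85 to 2.45), in 107 of 4798 lost peaks (2.23%, 1.83 to 2.69) and in 75 of 28385 gained peaks (0.264%, 0.208 to 0.331). In sequence of equal length 5 kb away, the shares were 0.291%, 0.136% and 0.252%. In 300 bp around the midpoint, which sets aside the greater length of kept peaks, the share was 1.58% (1.34 to 1.86) in kept and 2.19% (1.79 to 2.64) in lost peaks, whereas among peaks with a q-value of at most 0.01 it was 3.00% in kept and 2.67% in lost whole peaks. With matched sizes the share in gained peaks was 0.444% (0.309 to 0.616), against 0.349% 5 kb away. Within bins of fold from 3 to 7, lost peaks had the higher share: 2.37% (1.81 to 3.05) against 1.11% (0.823 to 1.47) at a fold of 3 to 4, 5.49% against 3.12% at 4 to 5 and 10.7% (5.85 to 17.7) against 5.48% (4.12 to 7.12) at 5 to 7. At a fold of 7 or more the shares were 9.09% of 11 lost and 9.88% of 486 kept peaks. In starved peaks the order was the other way, with 2.21% of kept and 0.591% of gained peaks at a fold of 3 to 4. Among fed peaks outside promoters, 64.3% (58.5 to 69.8) of 291 peaks with a GRE-like sequence and 62.0% of peaks without it were kept, or 55.3% (49.4 to 61.1) and 44.8% with matched sizes. Peaks with the sequence had a higher median fold, 4.33 against 3.39.

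**Figure D5:**
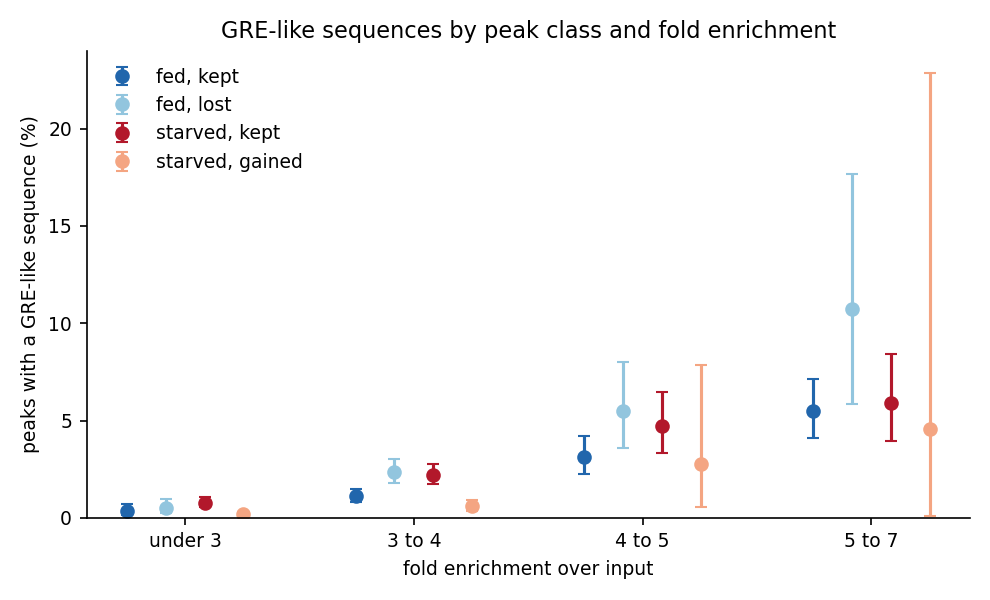
Share of GR peaks with a GRE-like sequence (y axis, percent) by fold enrichment over input (x axis, bins) for kept and lost fed peaks (blue shades) and kept and gained starved peaks (red shades); bars are exact 95% binomial intervals. Over the bins drawn, up to a fold of 7, the share is higher in the higher bins of every class, is 2.37% in lost and 1.11% in kept fed peaks at 3 to 4, and is 0.591% in gained peaks there.

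Other motifs were searched on both strands, each on its own, and hits that overlap were counted for each motif. In 300 bp around the midpoint of peaks outside promoters, the E-box CAGCTG, which is bound by myogenic factors, was present in 32.5% of kept, 25.2% of lost and 21.9% of gained peaks. The AP-1 motif was present in 9.15%, 6.17% and 7.72% of them, and in 10.9% (10.1 to 11.6) of gained peaks with matched sizes. A MEF2 motif was present in 2.74%, 2.34% and 0.658%. In whole promoter peaks, the NRF1 motif GCGCATGCGC was found in 2.28% of kept, 1.54% of lost and 1.92% of gained peaks, against at most 0.0788% in sequence 5 kb away, and the GC box GGGCGG in 69.7%, 57.2% and 59.9%. In whole peaks of all locations, the C/EBP motifs TTACGCAA and TTGCGCAA were found in 0.539% of kept, 0.167% of lost and 0.236% of gained peaks. Peaks of these classes differ in length and in G+C content.

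Overlap with LSD1 was larger for kept than for lost and gained GR peaks. An LSD1 peak of fed muscle overlapped 60.7% of kept, 24.4% of lost and 10.2% of gained GR peaks (62.1%, 37.3% and 15.0% with matched sizes), and an LSD1 peak of starved muscle 28.2%, 8.48% and 9.62%. Peaks of H3K9me2 in fed muscle overlapped 19% of kept, 11.7% of lost and 10.4% of gained peaks. For H3K9me2 in starved muscle the order differed, with 0.398% of kept, 1.47% of lost and 1.42% of gained peaks. These lists differ in length between conditions, and longer peaks have more chance of an overlap.

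Gained peaks were spread over the genome, with local clusters. Of 10353 windows of 250 kb that held a peak of any of the 8 lists, 6164 had more starved than fed GR peaks, 452 had fewer and 3737 had equal numbers. In 32 windows the starved list held at least 25 peaks more, and these windows contained 1033 gained peaks (3.62%). The largest difference, 0 and 60 peaks, was at chr5:15500001-15750000, nearest to Speer4d, where LSD1 had 0 and 74 peaks and H3K9me1 9 and 120. Next were the Atg7 and Hrh1 window with 1 and 52 peaks, a window of chromosome 8 starting at 20500001 with 2 and 47, and windows on chromosome 17 near Tcp10c with 0 and 39 and on chromosome 7 in the Snord116 cluster with 0 and 36. Windows near Zbtb7a and Pias4 (10 and 49) and near Ell and Lsm4 (15 and 49) had more fed peaks than these. Peaks that lay mostly in soft-masked sequence were 1.12% of kept fed, 5.06% of lost and 13.9% of gained peaks. In sequence of equal length 5 kb away the shares were higher, 18.1%, 19.8% and 20.3%. The part of repeats in these clusters was not tested.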

How the data were processed

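The authors immunoprecipitated GR from nuclei of skeletal muscle, sequenced the DNA as single-end reads, mapped it to mm10 (GRCm38), kept reads with 1 location, removed reads in a blacklist that their methods name for the human genome, and called broad peaks per library with MACS2 against input. Per the labels, base calling used bcl2fastq 2.20.0.422. The deposited lists give for each peak a fold enrichment, a ratio over input, and its p-value and q-value as −log10. Also deposited by the authors was a score, not used here. The highest q-value was 0.0974 in the fed and 0.0970 in the starved list, although the methods state a filter at 0.01.

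Peaks were assigned to 26180 genes by the nearest TSS of 45756 curated RefSeq transcripts on chromosomes 1 to 19, X and Y. The 31 fed and 156 starved peaks elsewhere stayed in counts of peaks only. Shares carry exact (Clopper-Pearson) 95% intervals. With 1 library per condition no p-value was computed. The genes named comprise a fixed list of 22, the 6 genes of highest fold per class, the 5 with the largest rise and fall in peaks at matched sizes, up to 4 members of each gene list and class, and the strongest peaks and pairs. A few genes and 1 motif of these lists are not reported here. Pairs were ranked among those with a fold of at least 5 in either condition. The samples, gene lists and rules were chosen with earlier results of these data known. Scripts were tested on simulated data, with Python 3.11.15, numpy 2.4.6, pandas 2.3.3, scipy 1.17.1 and matplotlib 3.10.9. The alternatives tried are given in the closing section.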

Additional observations from a re-analysis of the deposited data

How the results depend on the processing

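Of 73 alternative values for 15 results, 46 stayed within 1.5 times the main count, within its counting interval or, for the median log2 ratio, within 0.1. A reversal could be recorded only for the sign of that median ratio, and it did not occur there. The order of kept and lost peaks was not part of this count. It changed between settings for promoters and for GRE-like sequences. At a q-value of at most 0.01, with 9939 fed and 13107 starved peaks, 4132 genes were kept, 1621 lost and 3081 gained, 55.8% of fed and 42.1% of starved peaks were overlapped, GRE-like sequences were in 3.00% of kept and 0.439% of gained peaks, and 20.7% of kept, 17.2% of lost and 19.8% of gained peaks were in promoters. With the 5000 strongest peaks of each list, 2063 genes were kept, 1233 lost and 1210 gained. An overlap of 50% of the shorter peak gave 60.9% of fed and 22.6% of starved peaks overlapped, midpoints within 500 bp gave 64.9% of fed peaks, and merging peaks within 1000 bp gave 25.4% of starved peaks. With 0 mismatches, GRE-like sequences were in 0.194% of kept, 0.354% of lost and 0.0106% of gained peaks, and within 300 bp around the midpoint in 1.58% of kept peaks. With promoters reaching 1000 bp downstream, the promoter shares were 33.5%, 19.1% and 16.2%, and with matched list sizes 21.3% of kept, 23.2% of lost and 12.1% of gained peaks. The excess of promoters in kept over lost peaks was therefore not seen at matched sizes. Mostly masked peaks, 347 fed and 4052 starved, were left out in an alternative chosen after seeing the data, which moved no count of genes by 1.5 times. The cause of these shifts was not tested. No paired analysis was possible because each condition had 1 library.

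Depth is unknown and each condition rests on 1 library, and starvation, the animals, the immunoprecipitation, the depth and the input cannot be told apart. The nearest TSS names a gene by position only.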
